A study of Homo sapiens with 4 samples.

Results

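The genes of the caveola coat, the caveolins CAV1 and CAV2, the cavins CAVIN1, CAVIN2 and CAVIN3 and the neck ATPase gene EHD2, were followed in Hs578T cells with and without an shRNA against ELK3. Members were all probe sets that the platform's annotation pairs with exactly 1 symbol, that symbol being one of these 6 genes (older names PTRF, SDPR and PRKCDBP counted). This gave 18 of the 49293 probe sets on the array, for 6 of 18132 genes. Hs578T is an established human breast cancer line with mesenchymal features. Of the 4 Affymetrix PrimeView arrays, 2 came from cells labelled ELK3 knockdown (replicates 1 and 5) and 2 from cells labelled ELK3 sh control (replicates 1 and 2). All were grown in serum-containing medium with insulin. Stable knockdown was made by lentiviral shRNA transduction. The labels do not say whether replicates were separate cultures, clones or constructs, so p-values measure only the spread between these arrays, which may be technical.

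Caveolae are small flask-shaped pits of the plasma membrane, abundant in mesenchymal, endothelial, fat and muscle cells, that buffer membrane tension and gather receptors and lipids. Caveolin-1 inserts into the inner leaflet and builds the bulb with caveolin-2, and both bind cholesterol-rich membrane. Cavins assemble around the bulb as a second, peripheral coat, of which cavin-1 is the indispensable part, and EHD2 rings the neck and holds the pit at the surface. ELK3 is a transcription factor of the ETS family that forms ternary complexes, binding DNA beside serum response factor, and ETS factors recognise sites with the core GGAA.

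CAV1, CAV2 and EHD2 were lower in the knockdown arrays, and CAVIN2, dim in both groups, gives no contrast to them. The stretch just upstream of the start is shown for the 4 members that the RefSeq promoter table (GRCh38.p14) held. Each is 250 bases long, 5′ to 3′ on the strand of the gene, and ends at the base before the outermost annotated start. Capitals mark every GGAA, or TTCC where the core lies on the other strand. The windows are chr7:116524759-116525008 (plus strand) for CAV1, chr7:116499488-116499737 (plus strand) for CAV2, chr2:191847089-191847338 (minus strand) for CAVIN2 and chr19:47713172-47713421 (plus strand) for EHD2.
CAV1: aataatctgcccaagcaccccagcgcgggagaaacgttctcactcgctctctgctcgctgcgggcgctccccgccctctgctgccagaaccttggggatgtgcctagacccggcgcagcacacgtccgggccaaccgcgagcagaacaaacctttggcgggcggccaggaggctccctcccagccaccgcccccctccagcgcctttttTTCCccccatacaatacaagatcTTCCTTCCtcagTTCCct
CAV2: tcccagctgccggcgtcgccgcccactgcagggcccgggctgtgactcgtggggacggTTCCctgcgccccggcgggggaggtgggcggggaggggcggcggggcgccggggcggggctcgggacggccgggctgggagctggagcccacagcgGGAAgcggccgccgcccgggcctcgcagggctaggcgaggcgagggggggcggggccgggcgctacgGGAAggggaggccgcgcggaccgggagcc
CAVIN2: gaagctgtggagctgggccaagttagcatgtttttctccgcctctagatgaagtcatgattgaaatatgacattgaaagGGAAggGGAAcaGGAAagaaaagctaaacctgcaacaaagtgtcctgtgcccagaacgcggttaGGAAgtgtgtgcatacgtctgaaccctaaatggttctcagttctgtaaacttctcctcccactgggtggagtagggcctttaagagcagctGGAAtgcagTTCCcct
EHD2: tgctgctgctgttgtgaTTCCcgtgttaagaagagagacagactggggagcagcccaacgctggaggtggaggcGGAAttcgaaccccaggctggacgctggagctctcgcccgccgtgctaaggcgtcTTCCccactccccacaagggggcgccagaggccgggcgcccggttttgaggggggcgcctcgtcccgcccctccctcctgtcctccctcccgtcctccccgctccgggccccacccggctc

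The core was found 4 times in the CAV1 window, 3 times in CAV2, 6 times in CAVIN2 and 3 times in EHD2, counted on both strands. In CAV1 all 4 lie on the minus strand in the last stretch before the start, and 2 of them are adjoining. The core is common: 92.7% of 35116 windows of the same length held at least 1, with a median of 3. The longer ETS site CCGGAAGT, which contains the core, was in 3.42% of all windows and in none of these 4. The CArG box, the site of serum response factor, was in 1.16% of all windows and in none of these 4. The GC box GGGCGG was in 42.6% of all windows. It occurred 3 times in CAV1, 6 times in CAV2 and once in EHD2, and 0 times in CAVIN2. The CAV2 window had a GC content of 83.2%, above 99.0% of all windows, against 63.6% for CAV1, 69.6% for EHD2 and 48.0% for CAVIN2, where the median window had 58.0%. The contents of CAV1, EHD2 and CAVIN2 were above those of 63.4%, 78.3% and 28.0% of all windows. Both caveolin windows and that of EHD2 thus lie above the median, and that of CAVIN2 below it. Whether GC content or motif counts go with the change in signal was not tested. Windows at other annotated starts of CAV1 held the core 5 and 0 times. The other CAV2 window held it 0 times, with a GC content of 70.0%. The counts thus depend on the start taken. A match of letters is a description of the window, and absence says only that the letters are not in these bases.

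All values below are log2 signals that the authors had normalized with RMA, and all differences are knockdown minus control. The targeted gene was lower in both knockdown arrays. The brighter ELK3 probe set read 8.09 (replicate 1) and 7.92 (replicate 5) there, and 10.05 and 10.07 on the control arrays. The array medians lay between 6.76 and 6.80 and the 25th percentiles between 4.98 and 5.05. RMA tables carry no call of signal above background, so these percentiles are the only yardstick here for a dim probe set. Markers of a mesenchymal breast line were bright in the control arrays (7 of 7 measured, group means 10.39 to 14.29), while the 7 epithelial and luminal markers were mixed there. KRT18, GATA3 and KRT8 had control means of 10.65, 8.44 and 7.03, above the array medians, and ESR1, KRT19, CDH1 and EPCAM of 6.43, 4.73, 4.41 and 3.83, below them. Endothelial, adipocyte, muscle and leukocyte markers, 15 genes measured, had group means of 3.62 to 7.36. In both groups those of the 4 endothelial markers PECAM1, CDH5, CLDN5 and VWF were below the array medians. Those of the muscle marker DES (7.31 knockdown, 7.36 control) and the adipocyte marker ADIPOQ (7.26 and 7.32) were above them.

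Most of the caveola coat was lower in the knockdown arrays. EHD2, CAVIN3, CAV1, CAV2 and CAVIN1 fell by 19.7-fold, 7.30-fold, 5.22-fold, 3.10-fold and 2.94-fold, and CAVIN2, dim in both groups, differed by only 1.23-fold. The EHD2 fold is that of 1 probe set, and its others gave 1.74-fold to 5.43-fold. The gene is read here from its brightest probe set, and the test is limma, whose p was adjusted by Benjamini and Hochberg over every gene, with 0.05 as the threshold. By that rule 6 of 6 members were lower, where 21.3% of all genes were lower and 29.5% higher. The sixth, CAVIN2, passed by a margin that most other settings did not keep. The median change of the members was -2.01, against -0.01 over all genes. In RNA from whole cultures, fewer cells with a transcript and less transcript per cell cannot be told apart.

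**Figure D1:**
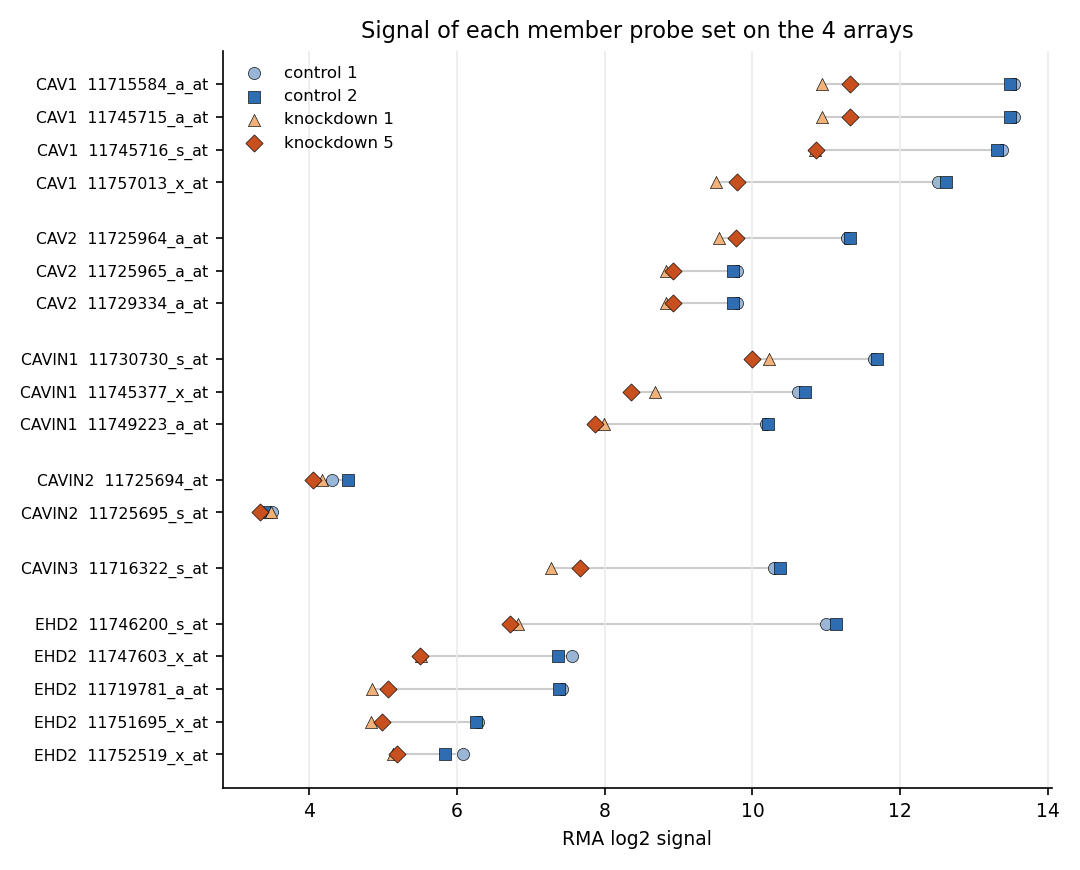
Log2 signal (horizontal axis) of each of the 18 member probe sets (rows, grouped by gene) on the 2 control arrays (blue) and the 2 knockdown arrays (orange), 1 point per array, with a grey line over the range of the 4. The orange points lie left of the blue ones at every probe set but 11725695_s_at of CAVIN2, and the CAVIN2 points lie at the dim end.

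CAV1 encodes caveolin-1, without which non-muscle cells form no caveolae. Its brightest probe set, 11715584_a_at, read 10.94 and 11.32 on the knockdown arrays (replicates 1 and 5) and 13.54 and 13.48 on the control arrays (replicates 1 and 2). Both knockdown arrays were far below both control arrays, and the knockdown arrays differed more from each other than the controls did. The change was -2.38 (SE 0.11, 95% interval -2.65 to -2.12, limma adjusted p = 3.77e-06). The group means were 11.13 ± 0.27 (SD, n = 2) and 13.51 ± 0.043 (SD, n = 2). A larger fall was measured for 2.42% of all genes.

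The other CAV1 probe sets gave the same picture. Probe set 11745715_a_at held the same value as 11715584_a_at on every array, so the pair counts as 1 measurement. Probe set 11745716_s_at read 10.85 and 10.86 in the knockdown arrays and 13.38 and 13.31 in the controls, a change of -2.49. Probe set 11757013_x_at read 9.51 and 9.78 against 12.51 and 12.63, a change of -2.92 or 7.58-fold. The 3 distinct CAV1 probe sets all fell, by 5.22-fold to 7.58-fold.

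CAV2 encodes caveolin-2, which joins caveolin-1 in mixed oligomers and needs it to leave the Golgi. Its probe set 11725964_a_at read 9.55 and 9.78 on the knockdown arrays (replicates 1 and 5) and 11.28 and 11.32 on the control arrays (replicates 1 and 2). The groups did not overlap, and the change was -1.63 (SE 0.089, 95% interval -1.84 to -1.42, limma adjusted p = 7.08e-06). Probe sets 11725965_a_at and 11729334_a_at, again with the same values as each other, read 8.83 and 8.92 against 9.79 and 9.73. That is a change of -0.88 or 1.84-fold, smaller than at the brighter probe set, and it also passed (limma adjusted p = 8.34e-05 over all probe sets).

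Every CAV1 probe set fell further than any CAV2 probe set. The within-array log2 ratio of CAV1 to CAV2 was lower by 0.75 in the knockdown arrays, and that of CAV1 to CAVIN1 lower by 0.83. The ratio of CAV1 to CAVIN3 was higher by 0.48. The ratio to CAV2 was lower by 1.41 with probe sets averaged, and that to CAVIN1 lower by only 0.12 where cross-hybridising ones were dropped. The ratio of CAV1 to EHD2 has no settled direction. It was higher by 1.92 at the brightest probe sets, lower by 0.37 with probe sets averaged and higher by 0.06 with cross-hybridising ones left out. The ratio to CAVIN2 is not read, since CAVIN2 was dim in both groups. Read from the brightest probe sets, each of the 5 ratios to another member gave an exact permutation p = 0.333 (two-sided, also after adjustment over the 5), the smallest that 2 arrays against 2 allow. These are unequal changes between probe sets, whose response to RNA can differ.

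CAVIN1 encodes cavin-1, the coat protein that caveolae cannot form without. Its brightest probe set, 11730730_s_at, read 10.23 and 9.99 on the knockdown arrays (replicates 1 and 5) and 11.64 and 11.69 on the control arrays (replicates 1 and 2). Here knockdown replicate 5 was the lower of the pair, opposite to CAV1 and CAV2. The change was -1.56 (SE 0.087, 95% interval -1.76 to -1.35, limma adjusted p = 7.77e-06). Probe set 11745377_x_at read 8.68 and 8.35 against 10.61 and 10.71, a change of -2.15. Probe set 11749223_a_at, the only one of the 3 whose name does not mark possible cross-hybridisation, read 7.99 and 7.87 against 10.19 and 10.20. Its change was -2.27 or 4.81-fold, so the probe set read for the gene gave the smallest fall of the 3.

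CAVIN3 encodes cavin-3, which binds protein kinase C delta and joins the coat through cavin-1. It had 1 probe set, 11716322_s_at, whose name marks possible cross-hybridisation. This read 7.27 and 7.66 on the knockdown arrays (replicates 1 and 5) and 10.30 and 10.37 on the control arrays (replicates 1 and 2). The knockdown arrays were both well below the controls, with a change of -2.87 (SE 0.13, 95% interval -3.19 to -2.55, limma adjusted p = 3.53e-06). The interval lies wholly below that of CAV2 and that of CAVIN1 and overlaps that of CAV1. A larger fall was measured for 1.73% of all genes.

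CAVIN2 encodes cavin-2, a part of the cavin coat that helps to curve the membrane. Its brighter probe set, 11725694_at, read 4.17 and 4.05 on the knockdown arrays (replicates 1 and 5) and 4.30 and 4.52 on the control arrays (replicates 1 and 2). These values lie below the 25th percentile of every array. The change was -0.30 (SE 0.10, 95% interval -0.55 to -0.05, limma adjusted p = 0.0492 over genes), and in the fit over all probe sets the same values did not pass (limma adjusted p = 0.0542). The other probe set, 11725695_s_at, read 3.48 and 3.34 against 3.50 and 3.38, with overlapping groups and a change of -0.03 (limma adjusted p = 0.788). The call was lost in 11 of 15 other settings, among them those without knockdown replicate 5 (-0.24) and without control replicate 2 (-0.19). Both groups were thus at the dim end of the arrays for CAVIN2.

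EHD2, an ATPase that oligomerises at the caveola neck, had the largest change of the 6 by the brightest probe set and also the widest spread between probe sets. Its brightest probe set, 11746200_s_at, read 6.82 and 6.71 on the knockdown arrays (replicates 1 and 5) and 11.00 and 11.13 on the control arrays (replicates 1 and 2). The knockdown arrays sat near the array medians and the controls far above them. The change was -4.30 (SE 0.092, 95% interval -4.52 to -4.08, limma adjusted p = 2.17e-07), or 19.7-fold, and 0.634% of all genes fell further. The other 4 EHD2 probe sets were dimmer. Probe set 11719781_a_at, the only one whose name does not mark cross-hybridisation, read 4.85 and 5.06 against 7.42 and 7.38, a change of -2.44 or 5.43-fold. Probe set 11747603_x_at read 5.51 and 5.49 against 7.55 and 7.36, a change of -1.96.

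The last 2 EHD2 probe sets, 11751695_x_at and 11752519_x_at, changed by -1.36 and -0.80 from control means of 6.27 and 5.96. All 5 fell with no overlap between the groups, and the size ranged from 1.74-fold to 19.7-fold. These 2 were below the array medians in the controls and near the 25th percentile in the knockdown arrays. Probe set 11719781_a_at was also near that percentile in the knockdown arrays, at 4.85 and 5.06. With the mean of all probe sets the change of EHD2 was -2.17, a smaller fall than that of CAVIN3 (-2.87) or CAV1 (-2.54). With cross-hybridising ones left out it was -2.44, beside -2.38 for CAV1. The direction for EHD2 therefore holds for each probe set, while the fold and its first place among the members do not.

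**Figure D2:**
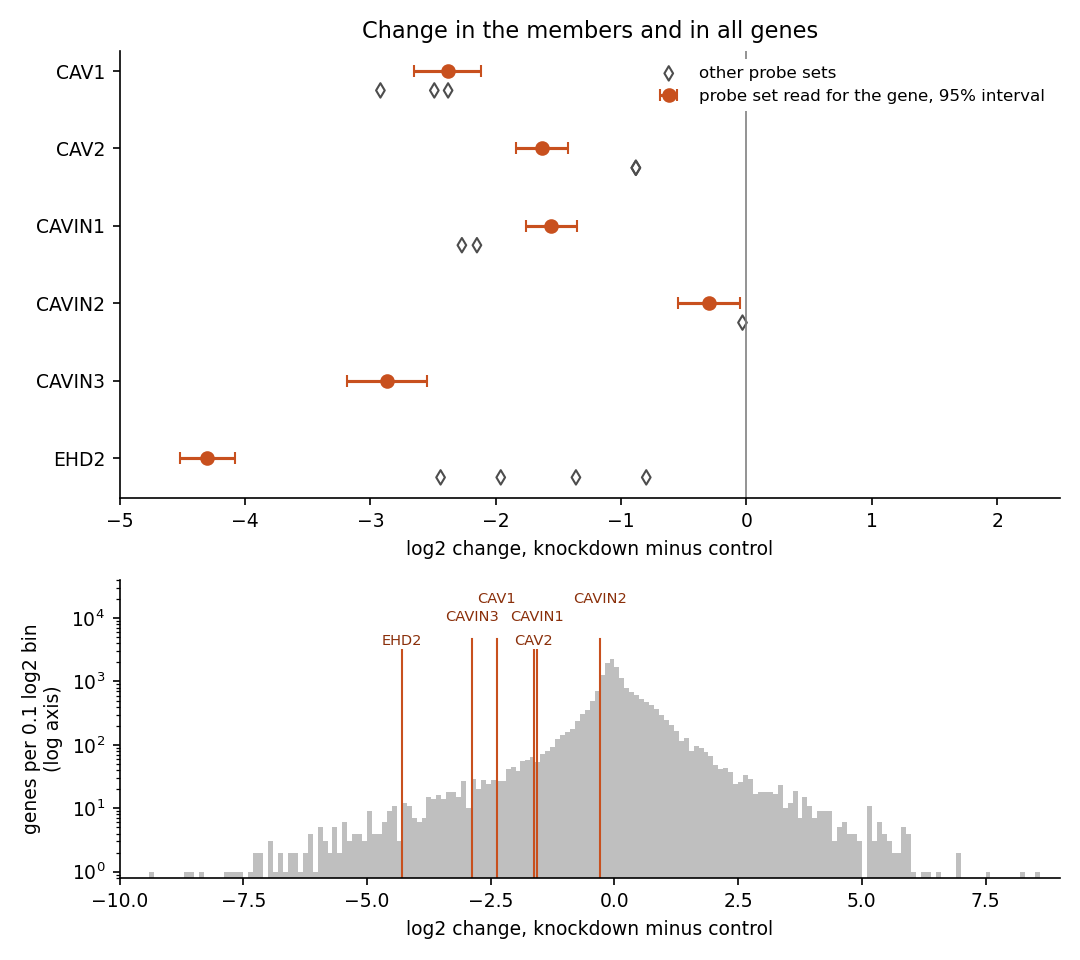
Upper panel: log2 change, knockdown minus control, of each member by the probe set read for the gene (filled circle, with its 95% interval from limma) and by its other probe sets (open diamonds; identical ones overlie each other). Lower panel: number of genes per bin of log2 change over all 18132 genes on a log axis, with the members marked by lines; EHD2, read from its brightest probe set at -4.30, lies farthest left and CAVIN2 at -0.30 lies within the central peak.

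Over the whole set, 14 of the 16 distinct member probe sets fell in the fit over all probe sets, where 22.1% of all probe sets did. The 2 that did not pass were those of CAVIN2. The groups did not overlap, with the knockdown arrays lower, at 17 of the 18 listed probe sets, where 37.5% of all probe sets were apart in that direction. The series' design text names a fold of 1.5 and a p under 0.05 for its selection, but no test. Read here as a fold over 1.5 with an unadjusted limma p under 0.05, it held 5 of the 6 genes, all but CAVIN2. By the same reading 12.6% of all genes were lower.

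The knockdown arrays also differed from each other in the members. In replicate 5 compared with replicate 1, CAVIN3, CAV1 and CAV2 were higher by 0.39, 0.38 and 0.23, while CAVIN1, CAVIN2 and EHD2 were at -0.23, -0.12 and -0.11. A larger gap between these arrays, in either direction, was found for 5.86% of genes in the case of CAVIN3 and 6.46% for CAV1. The share was 21.1% for CAV2, 20.6% for CAVIN1, 48.9% for CAVIN2 and 52.6% for EHD2. The gap for CAV1 was not seen at all its probe sets, being 0.01 at 11745716_s_at. That for EHD2 turned at 3 of its 5 probe sets, to 0.21 at 11719781_a_at, 0.15 at 11751695_x_at and 0.05 at 11752519_x_at. Read from the brightest probe sets, the largest gap between the control arrays was 0.22, for CAVIN2. At these probe sets both gaps were smaller than the difference between the groups for each of the 6 members. At the dimmer CAVIN2 probe set, 11725695_s_at, the knockdown gap (-0.14) and the control gap (-0.11) were larger in size than that difference (-0.03).

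CAV1 and CAV2 lie side by side on chromosome 7 (GRCh38.p14), CAV2 at 116499738 to 116508541 and CAV1 at 116525009 to 116561185, 16.5 kb apart. The next measured gene beyond CAV1 is MET, the receptor tyrosine kinase of hepatocyte growth factor, which read 10.19 and 10.27 in the knockdown arrays and 11.77 and 11.78 in the controls. MET fell by 1.55 (limma adjusted p = 1.66e-06), beside the falls of CAV1 and CAV2. CAPZA2, an actin capping subunit beyond MET, fell by 0.21. On the other side TES, a LIM-domain protein of focal adhesions, rose by 0.59 (limma adjusted p = 8.29e-04), and TFEC did not pass (-0.11). The 3 adjacent genes CAV2, CAV1 and MET thus fell together, and the nearest measured genes outside them were higher or changed by at most 0.21.

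The members on other chromosomes had neighbours that rose, fell or did not pass. The direct neighbours of CAVIN1 on chromosome 17 were STAT3, which did not pass (0.17), and ATP6V0A1, a proton pump subunit that rose by 0.79. STAT5A fell by 0.98 and NAGLU did not pass (-0.13). EHD2 on chromosome 19 lies between BICRA and NOP53, which rose by 0.45 and 0.81. SELENOW fell by 0.72 and ZNF541 did not pass (-0.19). Beside CAVIN3 on chromosome 11, CCKBR rose by 0.41 and SMPD1, the acid sphingomyelinase gene, fell by 1.84. APBB1 rose by 1.28 and CNGA4 did not pass (-0.11). Around the dim CAVIN2 on chromosome 2 both direct neighbours were lower. NABP1 fell by 2.01 and TMEFF2 fell by 4.33 (-3.16 with probe sets averaged). STAT4, 683 kb from CAVIN2, did not pass (-0.20), and SLC39A10, 3770 kb from it, rose by 0.92.

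**Figure D3:**
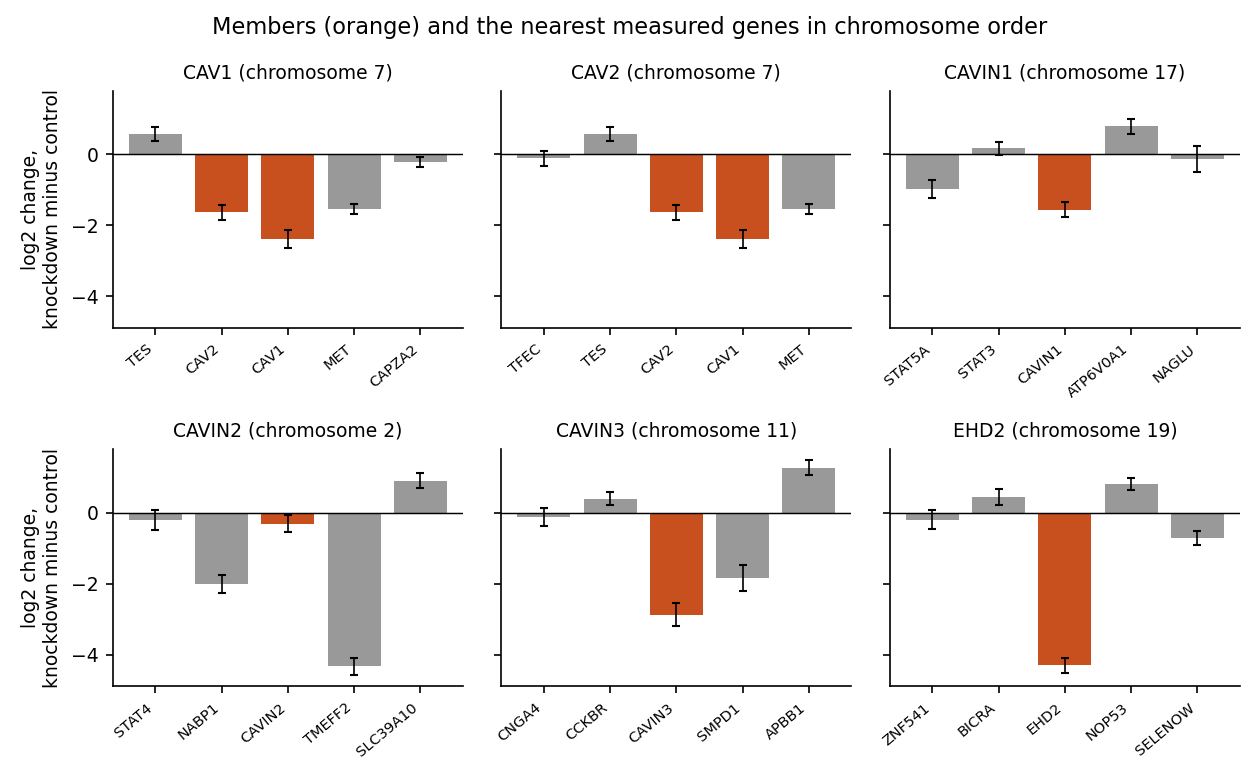
Log2 change, knockdown minus control, of each member (orange bar) and of the nearest 2 genes with a value on each side (grey bars; orange where a neighbour is itself a member), in chromosome order and not to scale in distance. Error bars are 95% intervals from limma on 2 arrays a group; CAV2, CAV1 and MET are the 3 adjacent genes that point down together.

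Other genes of the caveola, from a list of 12, went both ways. Among the 11 with a value, 2 rose and 3 fell while 6 did not pass, with a median change of 0.01. EHD3, a relative of EHD2 that works in recycling endosomes, fell by 1.68. DNM1 and DNM2, dynamin GTPases that cut membrane necks, fell by 1.31 and 0.56. PACSIN3 and PACSIN2, F-BAR proteins that bend the membrane at caveolae, rose by 1.38 and 1.04, or 2.61-fold and 2.06-fold. The muscle forms CAV3 and CAVIN4 stood at 0.03 and 0.01. EHD1 stood at -0.21 by its brightest probe set but at -0.80 averaged over its probe sets, where it passed (limma adjusted p = 1.08e-04). With the probe sets averaged in this way the list counted 5 lower.

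Genes of other uptake routes were read from flotillins and the clathrin coat. The flotillins, which scaffold membrane domains without forming caveolae, both rose, FLOT2 by 0.97 and FLOT1 by 0.38. Only 1 of the 2 passed without control replicate 1, as also without moderation of the variances. Of 12 clathrin coat and adaptor genes, 2 rose, 2 fell and 8 did not pass, with a median of -0.07. EPS15, an endocytic scaffold, rose by 1.09, and PICALM, a clathrin assembly protein, and AP2M1, the cargo-binding adaptor subunit, fell by 0.98 and 0.69. PICALM stood at -1.25 with probe sets averaged, and AP2M1 at -1.41 with cross-hybridising ones left out. Leaving out knockdown replicate 1 gave 4 that fell, and no moderation gave 1. The heavy chain gene CLTC stood at 0.10 and the light chain gene CLTA at 0.02.

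Receptors and enzymes known to reside in or signal from caveolae, 15 measured of 17 listed, split into 4 that rose, 5 that fell and 6 that did not pass (median 0.04). The receptor genes PDGFRB and EGFR fell by 3.95 and 2.40, and the insulin receptor gene INSR rose by 3.70. With the mean of their probe sets these were at -1.95, -1.53 and 2.28. Without moderation 2 rose. Genes of cholesterol synthesis and supply, 16 measured of 21 listed, rose in 8 and fell in 5, with a median of 0.29. SC5D, HMGCS1 and DHCR7, enzymes of the synthesis pathway, rose by 1.97, 1.29 and 1.05. The 5 that fell were ABCA1, a cholesterol exporter gene (-0.88), NPC1 (-0.74), NPC2 (-0.53), SREBF1 (-0.43) and SQLE (-0.22). SQLE, like SC5D, encodes an enzyme of the synthesis pathway. ABCA1 was below the array medians in both groups, with means of 5.69 (knockdown) and 6.57 (control). It stood at -0.41 with probe sets averaged. Without moderation only 1 fell. Over all genes tested 29.5% rose and 21.3% fell, so these lists of single genes are given as counts only.

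**Figure D4:**
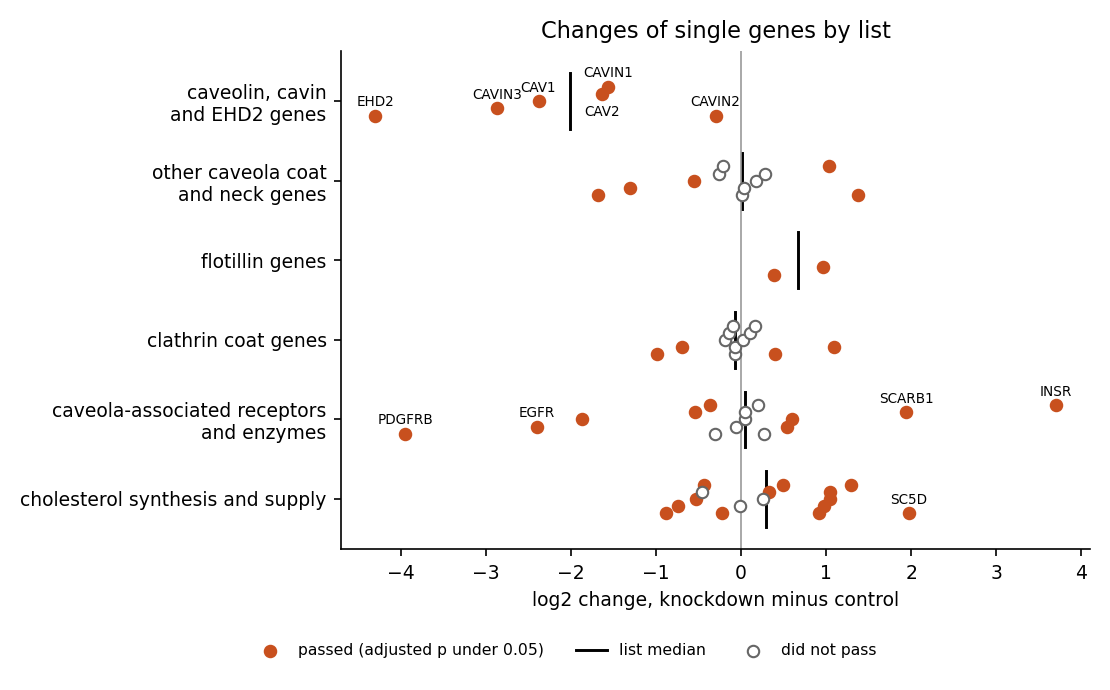
Log2 change, knockdown minus control, of single genes (1 point per gene, spread vertically for legibility) in the caveola coat genes and in 5 other lists; filled points passed at an adjusted p under 0.05, open points did not, and black bars are list medians. The coat genes lie left of 0 with a median of -2.01, and points of the other lists fall on both sides of 0 except for the 2 flotillin genes, which lie to the right.

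Beside the falls in the caveola coat, the mesenchymal marker list moved as well. Of 7 measured markers 7 fell, led by AXL (-7.26), FN1 (-6.19) and CD44 (-3.10). Averaged over its probe sets, AXL stood at -5.16. Of 7 epithelial and luminal markers, the keratin genes KRT19, KRT8 and KRT18 rose by 5.95, 5.67 and 2.20, and the other 4 did not pass. Where probe sets named as cross-hybridising were dropped, KRT8 and KRT18 had no value, and KRT19 still rose by 5.95. The group means of the mesenchymal markers ran from 5.62 to 13.12 in the knockdown arrays and from 10.39 to 14.29 in the controls. The part of these shifts in the change of the caveola genes was not tested. Of markers of other cell types rich in caveolae, 1 of 4 endothelial, 1 of 4 adipocyte and 0 of 4 muscle genes passed as lower. None passed as higher. Over all genes 21.3% were lower. Those that passed were PECAM1 of endothelium, which fell by 0.58, and FABP4 of fat, which fell by 0.50. Both were under the array median in both groups.

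The genes whose profile over the 4 arrays was nearest to a member's were found by the Euclidean distance between log2 values, each gene taken relative to its control mean. CBLB, a ubiquitin ligase, and HLA-C were nearest to CAV1 (distances 0.12 and 0.05). SH3YL1 and NKAIN3 were nearest to CAV2, PPP3CC and SGCB to CAVIN1, ZBTB20 and NREP to CAVIN3, and HHIP and TMEFF2 to EHD2, at distances of 0.03 to 0.10. Several of these likenesses rest on the probe set. With probe sets averaged, HLA-C turned to 0.70, CBLB moved from -2.33 to -1.36, NKAIN3 from -1.61 to -0.78 and TMEFF2 from -4.33 to -3.16. The members move too: EHD2 went from -4.30 to -2.17 when averaged, while HHIP stood at -4.04. The genes nearest to CAVIN2 were IQCJ and BRINP1, but 2922 genes lay within 0.3 of it. For the other members the number within 0.3 ran from 17 to 144. With 4 arrays in 2 groups, such a likeness is mostly a like change between the groups.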

How the data were processed

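The deposited table holds log2 signals of 49293 probe sets on 4 one-colour arrays, which the authors had put through RMA (named in the submitters' processing notes without a version or steps). Of these, 44988 carry a single symbol in the platform annotation. Each gene was read from its brightest probe set by the mean of the 4 arrays, and every member probe set was also tested. The comparison used limma 3.58.1 (R 4.3.3) on group alone, with eBayes moderation that follows intensity. Tests were two-sided and adjusted by Benjamini and Hochberg across every gene or every probe set, with 2 residual degrees of freedom and a prior of 4.83. The fit was tested on simulated data. Precision is limited by the number of arrays. Named were the members, ELK3, up to 3 of each list by size of change among those that passed, 2 measured neighbours on each side and the 2 nearest profiles. CDH1, EPCAM, GATA3, ESR1, CDH5, CLDN5, CAV3, CAVIN4, DNM2, EHD1, PACSIN2, CLTC, CLTA, ABCA1, PECAM1 and FABP4 were added after their values were seen. So were NPC1, NPC2, SREBF1, SQLE, VWF, DES and ADIPOQ. The members, lists and tests were chosen with earlier results of these data known. Of 94 listed genes besides the members, 9 had no probe set with a single symbol and are not analysed here. Alternatives covered moderation, probe sets, dim genes, normalization, thresholds and each array left out. Counting identical probe sets once (77 repeat an earlier one) and the CAV1 ratios with other choices of probe set were added after seeing the data. Promoter windows came from the RefSeq table of GRCh38.p14. Figures were drawn with matplotlib 3.10.9.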

Additional observations from a re-analysis of the deposited data

How the results depend on the processing

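CAV1, CAV2, CAVIN1, CAVIN3 and EHD2 fell and passed under all alternatives that could give a value for them. Their log2 changes ran from -2.60 to -2.20, -1.75 to -1.13, -2.27 to -1.44, -3.06 to -2.67 and -4.37 to -2.17, with limma adjusted p of at most 0.0343. CAVIN2 passed in 4 of 15 alternatives. It no longer passed at -0.30 without an intensity trend, with robust or no moderation or with cross-hybridising probe sets left out. Nor did CAVIN2 pass at an adjusted p under 0.01, or with the selection in the series' design text as read above. It did not pass at -0.26 after quantile normalization or at -0.165 when its probe sets were averaged, also with identical probe sets counted once (limma adjusted p 0.0139 to 0.231 over the alternatives). With each array left out in turn it ran from -0.41 to -0.19. Its dimmer probe set 11725695_s_at turned to 0.0093 after quantile normalization and ran from -0.10 to 0.041 with each array left out. When an array is left out, the lone array of that group is assumed to vary like the others. The number of all genes past the threshold was 9219; it was 5091 without moderation, 5753 with the selection in the series' design text, and 7820 to 9681 with each array left out. These settings differ in the fit, the rule or the arrays used, and how much each part counts was not tested. CAVIN3 had no value without cross-hybridising probe sets, and CAVIN2 none without dim genes. No paired analysis was made because the labels give no pairing of the arrays. Signal limits the reading of CAVIN2 and of the dimmer EHD2 probe sets.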
